A study of Mus musculus with 18 samples.

Results

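GFP-positive bone cells were compared with bone marrow stromal cells in mice carrying a conditional knockout of Pth1r, the gene for the receptor of parathyroid hormone (PTH) and of PTH-related protein (PTHrP). The comparison used 6 of 18 RNA-seq libraries, picked by title: 3 knockout libraries of GFP-positive bone and 3 knockout libraries of marrow, each numbered 1 to 3, with the number taken as a pair. All libraries came from freshly isolated osterix-derived cells at postnatal day 21, so every group shares the lineage and the age, and the series title places the knockout in osteoprogenitors. The marrow cells were sorted as negative for GFP and positive for another marker, written Tm in the sample titles. The corresponding 6 libraries of control mice, whose genotype is labelled wild type, were used to see where the knockout contrast differed, and they share no library with it. The Cre driver, the genes that carry GFP and Tm, the deleted part of Pth1r, the number of cells and animals per library and any pooling are not given in the sources used here.

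Osterix (Sp7) is a transcription factor needed to form osteoblasts. Cells that once expressed it give rise to osteoblasts and osteocytes in bone, to some growth plate chondrocytes and to stromal cells of the marrow. Marrow stroma of this lineage is known for the chemokine CXCL12, the leptin receptor and a low-level adipocyte programme, and it supports blood-forming cells. PTH1R signals mainly through the stimulatory G protein and cyclic AMP. In osteoblasts and stroma it controls bone formation and the osteoclast regulators RANKL and osteoprotegerin, and in the growth plate PTHrP acting on it keeps chondrocytes from enlarging early.

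The 6 libraries held 16443595 to 27160257 counts. Levels are given in CPM, counts scaled to a common library size, after TMM scaling, which adjusts libraries for their makeup. Where 2 sets of 3 levels are joined by the word against, the GFP-positive replicates 1 to 3 come first and the marrow replicates 1 to 3 last. A gene with 0 counts could still reach 0.0966 to 0.216 CPM, the value of 3 counts per library, which covers counting error only. Log2 fold changes are GFP-positive bone minus marrow, with their standard error (SE), differences between genotypes are the knockout log2 fold change minus the control one, and adjusted p-values come from edgeR's quasi-likelihood test over 15516 genes, n = 3 pairs. Nothing in the labels says that the 3 libraries of a group are from different animals. The p-values are therefore measured against the spread of these samples only, which may be technical. In replicate 3 of each group Xist was counted and Y-linked genes were nearly absent, the reverse of replicates 1 and 2, so the pair number also carries the sex of the cells. The subsets differed in makeup: the 10 most abundant genes held 36.9% to 38.2% of counts in GFP-positive libraries and 19.9% to 23.4% in marrow. Scaling by library totals alone moved the median of all genes by -0.61 on the log2 scale. Directions that turn with it are named beside their results or at the close, for values called under either scaling. A pair of libraries stood apart in markers of blood cells, GFP-positive replicate 2 in haemoglobin genes and marrow replicate 2 in platelet genes. Their values close this account.

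Pth1r itself was still counted in every knockout library. The gene (mm10 chr9:110722085-110747145, minus strand) stood at 4036, 3253 and 2724 CPM in the GFP-positive libraries and 372, 337 and 318 CPM in marrow. The control libraries held 4478, 4839 and 5032 CPM in GFP-positive bone and 541, 580.3 and 552 CPM in marrow. GFP-positive libraries lay above marrow without overlap in either genotype. The log2 fold change was 3.27 ± 0.09 in the knockout (adjusted p = 6.72e-13) and 3.10 ± 0.09 in the control, and the log2 difference of 0.17 ± 0.11 did not pass the threshold (adjusted p = 0.334). A count over all exons of a gene also takes in exons outside a deleted part, so these values do not check the knockout.

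Of 15516 genes tested, 10277 (66.2%) differed between GFP-positive bone and marrow in the knockout at an adjusted p under 0.05. They split into 4980 higher (32.1%) and 5297 lower (34.1%) in GFP-positive bone. At least 4-fold were 1836 of the higher genes (11.8%) and 1777 of the lower ones (11.5%). With library totals alone the split became 2928 higher and 8179 lower. In the control 9575 genes (61.7%) were called, and 7586 of the knockout calls (73.8%) were called there in the same direction. In bulk RNA a smaller share of a cell type and less RNA per cell cannot be told apart, which holds for every gene below.

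Cartilage genes dominated the GFP-positive libraries. Col2a1, the main collagen of cartilage (mm10 chr15:97975602-98004695, minus strand), took 21.2% to 22.6% of all counts there and 0.22% to 0.25% in marrow. It stood at 279705, 251359 and 259872 CPM in the GFP-positive libraries and 1978, 1764 and 1866 CPM in marrow, a log2 fold change of 7.14 ± 0.18 (adjusted p = 3.78e-13). All 22 genes of a chondrocyte list were higher in GFP-positive bone, where 32.1% of all genes tested were, and in each of the 22 the 3 and 3 libraries did not overlap (33.5% of all genes were non-overlapping in that direction). The list's median log2 fold change was 7.13, beside -0.04 over all genes. The labels call this subset bone cells, and its leading genes are those of cartilage, so it is named here by its sort.

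By CPM, which is not corrected for gene length, the 8 most abundant genes that were at least 4-fold higher in GFP-positive bone were all cartilage matrix genes: Col2a1, Col9a3, Comp, Col11a2, Col9a2, Col9a1, Chad and Col11a1. Col9a3, a chain of collagen IX, which coats collagen II fibrils, held 22392, 19000.4 and 18624 CPM against 137, 122 and 131 CPM. Comp, the cartilage oligomeric matrix protein that binds collagen, held 15538, 13962 and 15279 CPM against 121, 114 and 118 CPM. Chad, or chondroadherin, a cell-binding protein of cartilage, held 10038, 9975 and 10028 CPM against 74.9, 62.3 and 75.8 CPM. Per kilobase of exon, the GFP-positive level of Col2a1 was 28524 CPM, that of the bone collagen Col1a1 was 7014 CPM and that of Col9a3 was 5192 CPM.

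Sox9, the master transcription factor of chondrocytes, stood at 2989, 2823 and 2972 CPM against 73.9, 69.6 and 70.5 CPM, a log2 fold change of 5.36 ± 0.10. Its partners Sox5 and Sox6 were higher (log2 fold changes 4.41 ± 0.22 and 5.32 ± 0.38). Genes of successive growth plate zones were all present. Epyc, a small proteoglycan of growth plate cartilage, stood at 933, 774 and 905 CPM against 5.57, 5.11 and 6.53 CPM. Ihh, the Indian hedgehog ligand of prehypertrophic chondrocytes, stood at 786, 586 and 436 CPM against 3.96, 3.32 and 4.93 CPM. Col10a1, the collagen of hypertrophic chondrocytes, stood at 8901, 8662 and 8469 CPM against 114, 207 and 128 CPM, with a log2 fold change of 5.88 ± 0.27. In each of these genes every GFP-positive library lay above every marrow library. Runx3 had the smallest rise of the list, 1.90 ± 0.13. Of the 22 genes, 15 lay within 0.5 of the list's median on the log2 scale, from 6.99 to 7.56, and so did 181 of the 15516 genes tested.

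The promoters of Hapln1 and Matn1 are shown because both are cartilage matrix genes that lie in this range and hold the core sequence read by RUNX factors, TGTGGT, in the window printed. Hapln1 encodes a protein that links aggrecan to hyaluronan and stood at 6969, 7293 and 7312 CPM against 50.5, 44.8 and 48.4 CPM. Matn1 encodes matrilin 1 of cartilage matrix and stood at 3405, 2516 and 2438 CPM against 20.4, 17.8 and 22.2 CPM. The windows are RefSeq sequence of GRCm38.p6, 300 bases from 250 before to 50 after the transcript start, 5′ to 3′ on the gene's strand, with the motif in capitals. They lie at chr13:89540386-89540685, plus strand for Hapln1 and chr4:130944135-130944434, plus strand for Matn1.
Hapln1: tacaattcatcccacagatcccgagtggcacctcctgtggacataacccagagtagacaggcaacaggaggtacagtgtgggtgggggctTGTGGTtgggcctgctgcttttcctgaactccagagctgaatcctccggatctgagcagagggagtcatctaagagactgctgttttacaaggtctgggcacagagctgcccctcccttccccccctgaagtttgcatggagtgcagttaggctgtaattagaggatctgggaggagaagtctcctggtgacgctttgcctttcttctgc
Matn1: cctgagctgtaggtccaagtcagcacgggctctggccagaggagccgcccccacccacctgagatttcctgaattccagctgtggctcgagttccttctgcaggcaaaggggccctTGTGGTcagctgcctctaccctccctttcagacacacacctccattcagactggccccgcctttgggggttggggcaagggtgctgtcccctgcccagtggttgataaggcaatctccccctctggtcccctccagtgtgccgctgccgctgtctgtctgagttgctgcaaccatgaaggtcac
Searched on both strands, TGTGGT was in 6 of the 17 chondrocyte promoters with a RefSeq entry (35.3%: Sox6, Matn1, Hapln1, Ucma, Epyc and Runx3) and in 15% of the 11256 promoters of tested genes. ACAAAG, read by SOX factors, was in 3 of the 17 (17.6%) and in 16.3% of all. A match is a description of the letters, not a site.

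**Figure D1:**
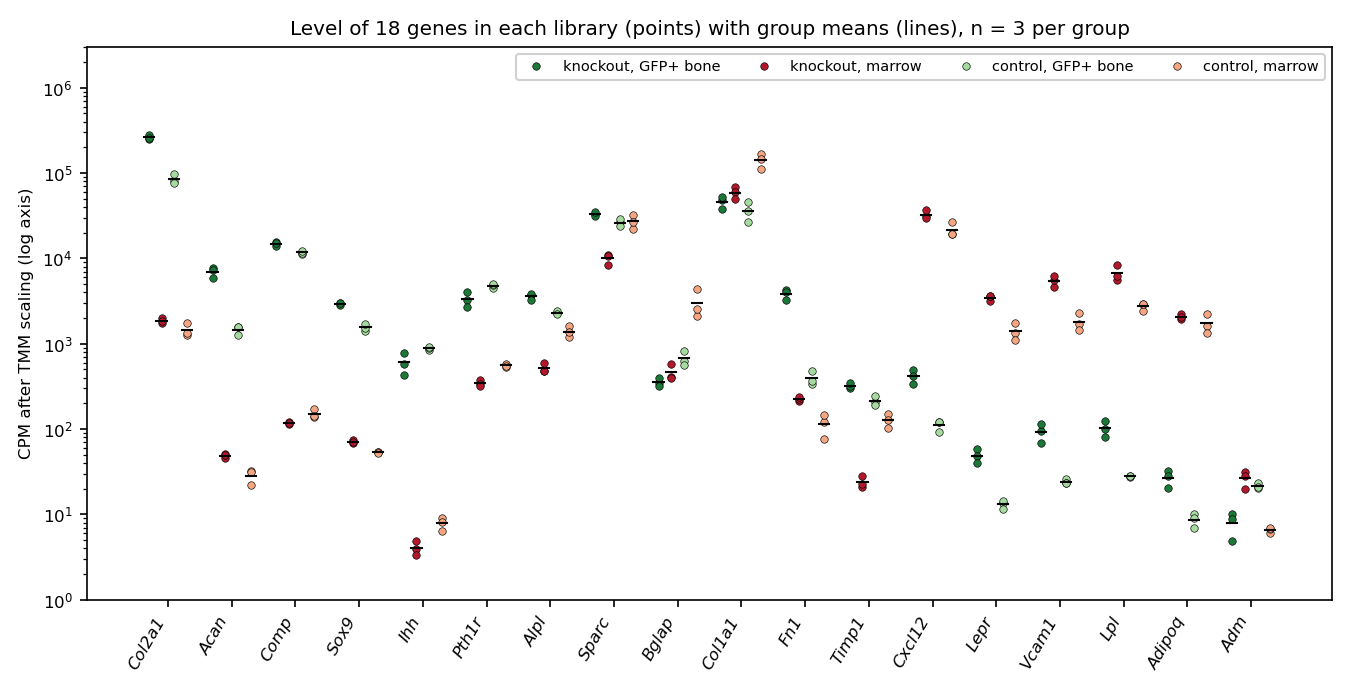
Level of 18 genes in each library of the 4 groups (log axis, CPM after TMM scaling), with 1 point per library. Cartilage genes such as Col2a1 lie at 251359 to 279705 CPM in knockout GFP-positive bone against 1764 to 1978 CPM in knockout marrow, while Cxcl12, Lepr and Adipoq lie the other way round.

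The largest rises by fold were in genes nearly absent from marrow, and they belonged to no single family. Adm2, which encodes a peptide hormone of the calcitonin family, stood at 7.72, 7.997 and 16.4 CPM in GFP-positive bone and 0 in all 3 marrow libraries, at least 76.0-fold higher against the floor of 3 counts per library. Pkp1, a desmosome protein, was at least 47.4-fold higher (3.10, 4.41 and 12.5 CPM), and Mfsd2a, a lipid transporter, at least 37.3-fold (5.94, 6.59 and 3.24 CPM). A further 5 had 1 to 3 counts over the 3 marrow libraries and are given as a ratio of pooled counts. The ratio was 748 (95% counting interval 207 to 6187) for Kctd4 and 452 (95% counting interval 80.5 to 17894) for Odf3l2. It was 260.0 (95% counting interval 88.5 to 1264) for Klhl40, 296 (95% counting interval 81.4 to 2452) for Wnt10b, a Wnt ligand that favours bone formation, and 238 (95% counting interval 80.8 to 1156) for Lrtm2. Ccdc88c, a regulator of Wnt signalling, stood at 20.4, 29.2 and 23.6 CPM against 0.129, 0.112 and 0.0469 CPM, a log2 fold change of 7.82 ± 0.55. These 9 genes were picked from those called with edgeR, so their calls (adjusted p from 7.86e-12 to 1.23e-05) were part of the choice. Pkp1 and Klhl40 were at or near the floor in control GFP-positive bone, at 0, 0.473 and 0.433 CPM and 0.0760, 0 and 0.0962 CPM, and their differences between genotypes did not pass (adjusted p = 0.123 and 0.961), while DESeq2 called both (adjusted p = 0.00569 and 0.0161).

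Genes by which stroma supports blood formation were lower in GFP-positive bone. Of 18 marrow stroma genes 1 was higher and 17 lower in GFP-positive bone, beside 34.1% lower over all genes, and the list's median was -5.34. Cxcl12, the chemokine that holds blood stem cells in the marrow (mm10 chr6:117168535-117181367, plus strand), stood at 498, 423 and 339.9 CPM in the GFP-positive libraries and 31559, 29659.6 and 36708 CPM in marrow, a log2 fold change of -6.28 ± 0.22 (adjusted p = 8.89e-12). Lepr, the leptin receptor, stood at 58.3, 48.5 and 39.6 CPM against 3208, 3640.1 and 3585 CPM. Kitl, the stem cell factor, stood at 19.6, 19.2 and 16.9 CPM against 897, 1202 and 1577 CPM. In all 3 genes the subsets were far apart and did not overlap. Vcam1, an adhesion molecule for blood cells, was lower (log2 fold change -5.90 ± 0.18). So were Csf1, the macrophage growth factor (log2 fold change -4.95 ± 0.11), and Il7, the lymphocyte growth factor (-6.17 ± 0.22). The transcription factors Ebf1 and Ebf3, which maintain the stromal state, were lower (log2 fold changes -4.33 ± 0.11 and -5.55 ± 0.14). Ptn, pleiotrophin, was the exception and was higher in GFP-positive bone, 41.3, 41.97 and 41.8 CPM against 16.8, 18.5 and 19.2 CPM.

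The Cxcl12 promoter is printed as the marrow counterpart of the cartilage promoters above (RefSeq, GRCm38.p6, chr6:117168285-117168584, plus strand, the same window). It held neither TGTGGT nor ACAAAG, so it has no capitals.
Cxcl12: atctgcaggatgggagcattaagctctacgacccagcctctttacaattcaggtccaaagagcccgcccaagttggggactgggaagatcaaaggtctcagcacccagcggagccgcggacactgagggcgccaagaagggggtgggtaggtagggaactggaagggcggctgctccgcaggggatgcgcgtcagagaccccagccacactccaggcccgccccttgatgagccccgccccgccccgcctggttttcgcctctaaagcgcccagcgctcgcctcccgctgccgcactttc
Among 13 marrow stroma promoters with an entry, 2 held TGTGGT (15.4%) and 1 held ACAAAG (7.69%). The absence of a match says only that these letters are not in this window.

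The adipocyte programme lay on the marrow side with the stroma. Of 22 adipocyte genes 1 was higher and 20 lower in GFP-positive bone (median -4.51), where 32.1% of all genes were higher and 34.1% lower. Lpl, the lipase that frees fatty acids from lipoproteins, stood at 126, 99.6 and 81.0 CPM against 8266, 5646 and 6231 CPM. Adipoq, adiponectin, stood at 32.1, 28.2 and 20.5 CPM against 1945, 2218 and 2085 CPM. Pparg, the master transcription factor of adipocytes, stood at 3.97, 3.78 and 7.05 CPM against 239.7, 236 and 236 CPM. For these 3 genes the log2 fold changes were -6.04 ± 0.12, -6.28 ± 0.22 and -5.63 ± 0.22, and their libraries did not overlap. Apoe, a lipoprotein component, was lower (log2 fold change -5.35 ± 0.12). Fasn, fatty acid synthase, was the gene of the list that was higher in GFP-positive bone, at 373, 401 and 459 CPM against 40.5, 30.6 and 43.9 CPM (3.43 ± 0.14). Of 13 complement and acute phase genes tested 0 were higher and 12 lower (median -4.58). Hp, haptoglobin, stood at 39.1, 36.2 and 31.7 CPM against 2417, 2375 and 2282 CPM, and Serping1, the C1 inhibitor, at 48.1, 36.6 and 33.7 CPM against 1378, 1856 and 1581 CPM. Cp, which encodes the copper protein ceruloplasmin, was lower (log2 fold change -4.58 ± 0.10), and so were the complement proteases C1ra and C1s1 (-4.04 ± 0.12 and -4.39 ± 0.14). Lcn2 was the member not called, at 1.6, 5.67 and 4.6 CPM against 5.92, 2.69 and 3.99 CPM.

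Among the other abundant genes at least 4-fold lower in GFP-positive bone were Igfbp4, Gas6, H2-D1 and Tnc. Igfbp4, an inhibitor of insulin-like growth factors, stood at 107, 89.0 and 77.7 CPM against 5737, 4246 and 6632 CPM. Gas6, a ligand of TAM receptors, stood at 127, 122 and 86.2 CPM against 4589.6, 3919 and 5155 CPM. H2-D1, a class I histocompatibility gene, stood at 189, 239 and 208 CPM against 3313, 6705 and 3601 CPM, and Tnc, tenascin C, at 322, 459.6 and 372 CPM against 3608, 2938 and 3582 CPM. Non-overlap between subsets was a condition for picking these 4 genes. By fold, the 10 largest falls were low in absolute level. They included Mc2r, the receptor for corticotropin, at 0.320, 0.0485 and 0.144 CPM against 26.5, 20.7 and 21.8 CPM, Adrb3, the beta-3 adrenergic receptor, at 0.320, 0.0969 and 0 CPM against 11.5, 14.7 and 21.7 CPM, and Klb, the co-receptor for endocrine FGFs, at 0.0457, 0.145 and 0.144 CPM against 15.8, 7.46 and 11.5 CPM. The pooled ratio of marrow to GFP-positive counts was 168 (95% counting interval 46.2 to 1390.4) for Slc38a11, 149 (95% counting interval 40.9 to 1231) for Clec2d, 116 (95% counting interval 39.4 to 564) for the granzyme Gzme and 111 (95% counting interval 37.7 to 539) for Retn, which encodes resistin. Trpc6, a cation channel, and Sh2d4b were lower (log2 fold changes -6.67 ± 0.55 and -7.08 ± 0.93). For Cyp2f2, a cytochrome P450, the pooled ratio of 320.1 (95% counting interval 57.2 to 12671) rests largely on marrow replicate 2, which held 14.9 CPM beside 0.676 and 1.31 CPM. Klb stood at 0.449, 0.556 and 0.476 CPM in control marrow.

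Osteoblast genes did not divide the subsets in 1 direction. Over all genes 32.1% were higher and 34.1% lower. Of 20 genes of bone matrix and mineralisation 9 were higher and 3 lower in GFP-positive bone, and 8 were not called. The median was 0.51, and with library totals alone it was -0.09, with 8 lower. Without marrow replicate 3 the TMM scaling gave a median of 0.21 and 6 lower. Alpl, the phosphatase that allows mineral to form (mm10 chr4:137741733-137796384, minus strand), stood at 3726, 3805 and 3255 CPM against 588, 477 and 481 CPM, a log2 fold change of 2.80 ± 0.09 (adjusted p = 4.86e-12). Smpd3, a sphingomyelinase needed for mineralisation, stood at 7098, 5879 and 4131 CPM against 247, 218 and 184 CPM. Sparc, osteonectin, which binds collagen and calcium, stood at 33445, 31517 and 34677 CPM against 10972, 10808 and 8298 CPM, and Tnn, tenascin W, at 191, 296 and 344 CPM against 11.6, 10.7 and 10.1 CPM. These 4 genes did not overlap between the subsets (33.5% of all genes were non-overlapping in that direction). The main bone collagen did not follow them. Col1a1 stood at 37435, 48672 and 51996 CPM against 68358, 59449 and 49210.5 CPM, overlapping, with a log2 fold change of -0.37 ± 0.22 that was not called (adjusted p = 0.153). Without marrow replicate 3 it was -0.60 and was called (adjusted p = 0.0326), and so it was with library totals alone (-0.98, adjusted p = 4.99e-04). Bglap, osteocalcin (mm10 chr3:88383501-88384464, minus strand), stood at 347, 322 and 399 CPM against 579.7, 409 and 399 CPM and its change of -0.38 ± 0.16 was not called either (adjusted p = 0.0578). Without marrow replicate 3 it was -0.60 (adjusted p = 0.00398). Bglap was also called lower with library totals alone (-0.98, adjusted p = 2.21e-05) and with the length trend removed (-0.85, adjusted p = 0.00106). Spp1, osteopontin, stood at 4430.2, 4277 and 3544 CPM against 2108, 3828 and 2829.9 CPM, with some overlap and a log2 fold change of 0.52 ± 0.18 (adjusted p = 0.0203). It turned to -0.09 with library totals alone, had an adjusted p of 0.0966 without the pairing, and was lost without GFP-positive replicate 1 or marrow replicate 1 (adjusted p = 0.189 and 0.157). The call was also lost with no filter on low counts (adjusted p = 0.114). The genes called lower were Col22a1 (-1.16 ± 0.20), the phosphate transporter Slc20a2 (-0.58 ± 0.12) and the procollagen protease Bmp1 (-0.33 ± 0.08), which was not called with the length trend removed (-0.16, adjusted p = 0.0631).

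The contrast of these bone genes differed between genotypes. In the control 6 were higher and 13 lower in GFP-positive bone, with a median of -1.06. The difference of the contrasts, knockout minus control, was called higher for 17 of the 20 genes and lower for 0, where 12.5% of all genes tested were called higher and 8.66% lower. With library totals alone it was higher for 14 and lower for 0, where 863 of all genes tested were higher and 4976 lower. Bglap differed by log2 1.75 ± 0.23 (adjusted p = 1.94e-04). Its control libraries held 623, 828 and 563 CPM against 2126, 4418 and 2546 CPM, with marrow above GFP-positive bone in every pair. Col1a1 held 45863, 36194 and 26700.0 CPM against 112721, 166104 and 145014 CPM in the control, and its difference was 1.61 ± 0.31 (adjusted p = 0.00271). Alpl held 2288, 2431 and 2238 CPM against 1211, 1597 and 1360.2 CPM there, so that it was higher in GFP-positive bone in both genotypes, with a log2 fold change of 0.75 ± 0.09 in the control. The summed level of the list was 107826 to 124191 CPM in knockout GFP-positive bone and 84704 to 119265 CPM in knockout marrow. In the control it was 69467 to 98323 CPM and 186352 to 275537 CPM. The control marrow sums thus lay above all other groups, and the sum of the knockout subsets overlapped.

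The Bglap promoter is shown because osteocalcin is the classical RUNX2 target of osteoblasts and its contrast differed between genotypes. The window (RefSeq, GRCm38.p6, chr3:88384417-88384716, minus strand) is printed on the gene's strand, with the RUNX sequence in capitals. Here it reads ACCACA, the reverse complement of TGTGGT.
Bglap: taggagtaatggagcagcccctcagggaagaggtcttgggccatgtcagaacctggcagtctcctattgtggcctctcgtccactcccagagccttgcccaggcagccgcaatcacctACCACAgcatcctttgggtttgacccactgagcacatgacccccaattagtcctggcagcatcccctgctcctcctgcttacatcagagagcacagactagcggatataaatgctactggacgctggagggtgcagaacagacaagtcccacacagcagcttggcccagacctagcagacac
TGTGGT was in 4 of 13 osteoblast matrix promoters with an entry (30.8%: Bglap, Sparc, Spp1 and Enpp1), beside 15% of all tested promoters. ACAAAG was in 2 (15.4%).

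Transcription factors of the osteoblast lineage went in both directions. Of 14 genes 8 were higher and 6 lower in GFP-positive bone, beside 32.1% and 34.1% over all genes. The list's median was 0.54 (-0.07 with library totals alone). Runx2, required for osteoblasts and active in hypertrophic cartilage, stood at 100.4, 89.9 and 96.7 CPM against 45.7, 45.8 and 46.9 CPM. Mef2c, which drives chondrocyte hypertrophy, stood at 632, 544 and 374 CPM against 39.9, 58.3 and 43.8 CPM. Dlx3, a homeobox factor of osteoblasts, stood at 45.3, 51.3 and 39.1 CPM against 15.03, 12.2 and 14.2 CPM. All 3 lay above marrow without overlap. Cbfb, the partner of RUNX proteins, was higher (log2 fold change 1.47 ± 0.10), and so was Atf4, a stress-response factor needed by osteoblasts (1.78 ± 0.14). Sp7 itself, the lineage marker, stood at 141, 155 and 171 CPM against 132, 88.8 and 112 CPM, a log2 fold change of 0.51 ± 0.11 that turned to -0.11 with library totals alone. Dlx5, Msx1 and Twist1 were lower (log2 fold changes -1.0 ± 0.07, -1.92 ± 0.15 and -1.35 ± 0.13), and so were Dlx6 and Twist2. For 7 of the 14 the contrast was higher in the knockout than in the control and for 0 lower, beside 12.5% and 8.66% over all genes. With library totals alone 2 were higher and 3 lower, where 863 of all 15516 genes were higher and 4976 lower. Dlx3 went in opposite directions, 1.72 in the knockout and -0.60 in the control (difference 2.33 ± 0.19, adjusted p = 4.31e-06).

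Osteocyte genes lay on both sides, more of them higher in GFP-positive bone. Of 10 tested, 6 were higher and 2 lower (1 lower without GFP-positive replicate 2 or without the pairing), where 32.1% of all genes were higher and 34.1% lower. The lowest log2 fold change of the list was -2.07, and neither member called lower is among those given below. The median was 1.15, and with library totals alone it was 0.53, with 5 higher and 3 lower. Fam20c, the kinase that phosphorylates secreted bone proteins, stood at 268, 246 and 266 CPM against 41.5, 33.6 and 36.1 CPM. Pdpn, podoplanin of young osteocytes, stood at 4.29, 5.14 and 4.32 CPM against 0.451, 0.746 and 0.422 CPM, and Irx5 at 65.3, 80.7 and 60.1 CPM against 31.5, 33.4 and 29.7 CPM. Wnt1, a Wnt ligand made by osteocytes, stood at 3.15, 2.13 and 3.96 CPM against 0.0322, 0.0746 and 0.0939 CPM. Sost, sclerostin, a Wnt inhibitor of mature osteocytes, stood at 0.594, 0.727 and 0.575 CPM and at 0 in the 3 marrow libraries, at least 4.49-fold higher against the floor. Dmp1, a mineral-binding protein of osteocytes, overlapped at 209.8, 382 and 199.9 CPM against 218, 321 and 138 CPM and was not called (0.23 ± 0.22, adjusted p = 0.369). In the control Dmp1 held 127, 100.1 and 104 CPM against 405, 641 and 509 CPM, a log2 fold change of -2.22 ± 0.23, and the difference was 2.45 ± 0.32 (adjusted p = 1.87e-04). Phex, an enzyme of phosphate control, was close to 0 in the knockout (0.12 ± 0.12, -0.49 with library totals alone) and lower in the control (-2.12 ± 0.13). The contrast was called higher in the knockout than in the control for 7 of the 10 and lower for 0 (6 and 0 with library totals alone). The shares over all genes were 12.5% higher and 8.66% lower.

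**Figure D2:**
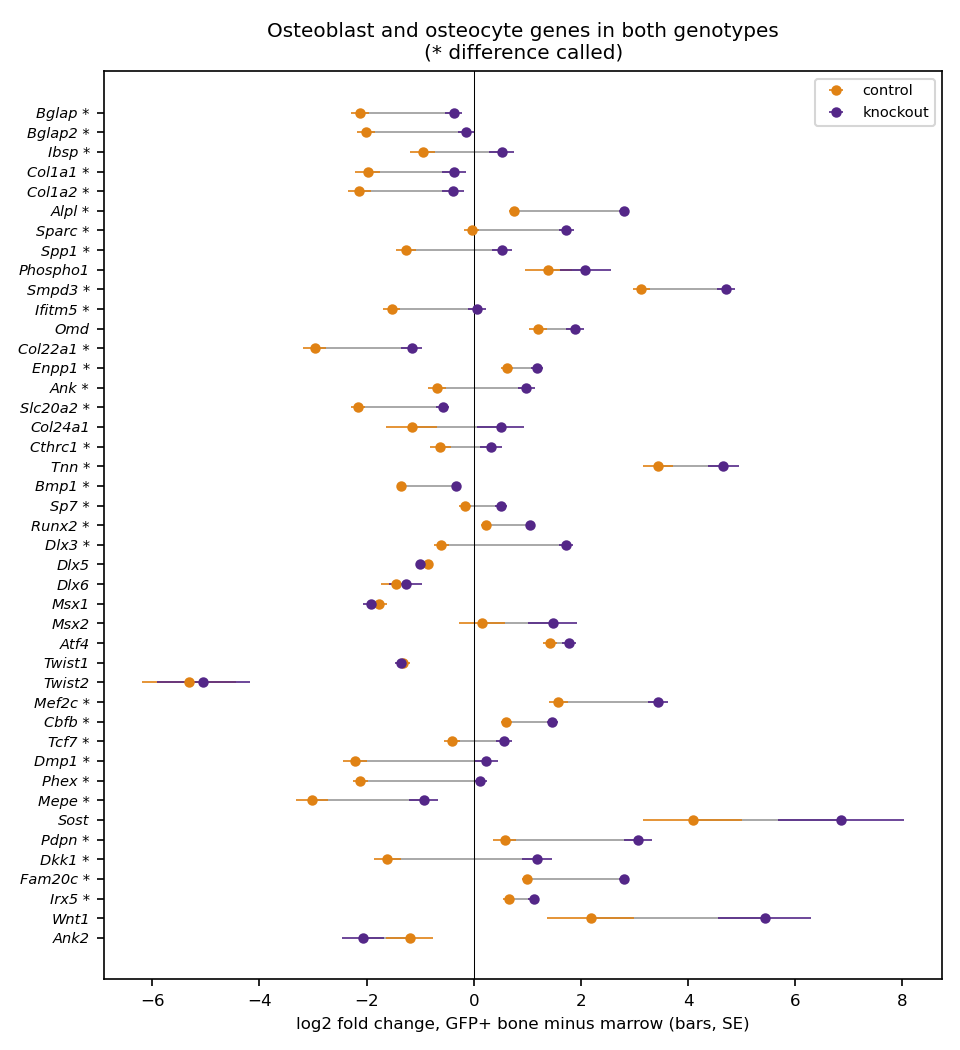
Log2 fold change of GFP-positive bone minus marrow, with its SE, in the knockout and in the control, for osteoblast matrix genes, osteoblast transcription factors and osteocyte genes. A star marks genes whose contrasts differed between genotypes. Most knockout points lie to the higher side of their control points, as for Bglap (-0.38 against -2.12) and Dmp1 (0.23 against -2.22).

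Genes for handling collagen were higher in GFP-positive bone. Of 20, 17 were higher and 3 lower (median 1.45), beside 32.1% and 34.1% over all genes. With library totals alone 14 were higher and 5 lower. P4ha1 and P4hb, the subunits of the enzyme that hydroxylates collagen proline, stood at 662, 572 and 617 CPM against 93.0, 107 and 102 CPM and at 3595, 3193 and 3715 CPM against 853, 845 and 939.8 CPM. Plod2, a lysyl hydroxylase, was higher (log2 fold change 2.79 ± 0.11), and so was Ppib, a prolyl isomerase of collagen folding (1.69 ± 0.08). These 4 did not overlap between subsets. The members called lower were the crosslinking enzyme Lox (245, 343 and 301 CPM against 1308, 1459 and 1219 CPM), the protease enhancer Pcolce (-0.77 ± 0.14) and the export factor Mia3 (-0.25 ± 0.08), whose call ended without marrow replicate 1 or 3 or GFP-positive replicate 3 (adjusted p from 0.0506 to 0.0568). The Mia3 call also ended with only the compared libraries, DESeq2 or the length trend removed (adjusted p from 0.0561 to 0.2455). Of 19 fibroblast, periosteum and tendon genes 14 were higher and 1 lower (median 2.32), and 2 were lower without the pairing or without replicate 3 of either subset. Fn1, fibronectin, stood at 3230.4, 4313 and 4017 CPM against 212, 225 and 239 CPM, and Postn, periostin of the periosteum, at 732, 1119 and 1195 CPM against 60.7, 66.0 and 70.5 CPM. Col12a1, a fibril-associated collagen, was higher (log2 fold change 2.32 ± 0.13). Mkx, a tendon transcription factor, was the member called lower (-1.76 ± 0.18). Cd34 and Pi16, markers of other fibroblasts, were near the floor in both subsets.

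Matrix proteases and their inhibitors were divided: of 16, 4 were higher and 9 lower (median -0.59), beside 32.1% and 34.1% over all genes. Timp1, an inhibitor of metalloproteinases, stood at 306, 320.4 and 344 CPM against 21.1, 28.5 and 22.9 CPM. Timp3, an inhibitor bound to matrix, stood at 715, 867 and 1688 CPM against 22.2, 39.9 and 30.6 CPM, and Timp4, a relative, at 2.92, 2.42 and 1.94 CPM against 167, 145 and 246 CPM. Timp1 and Timp3 thus lay above marrow and Timp4 below it, each without overlap. Mmp2, a gelatinase, was higher (log2 fold change 1.81 ± 0.13), and Mmp11 was lower (log2 fold change -4.01 ± 0.17). Mmp13, the collagenase of hypertrophic cartilage and bone, stood at 739, 594 and 542 CPM against 615, 1185 and 923 CPM. Its change of -0.49 ± 0.20 (adjusted p = 0.0454) was lost without the pairing (adjusted p = 0.0629) and when marrow replicate 2 or 3 or GFP-positive replicate 2 or 3 was left out (adjusted p from 0.160 to 0.282). It was also lost with only the compared libraries, DESeq2, no filter on low counts or the length trend removed (adjusted p from 0.0933 to 0.171). Of 12 smooth muscle and pericyte genes 1 was higher and 9 lower (median -3.31), and leaving out single knockout libraries left 7 to 9 lower. Notch3, a receptor of mural cells, stood at 8.31, 4.99 and 9.28 CPM against 299, 173 and 389 CPM, and the channel subunits Abcc9 and Kcnj8 were lower (log2 fold changes -3.52 ± 0.25 and -3.53 ± 0.27). Acta2, smooth muscle actin, was lower (log2 fold change -1.85 ± 0.56, adjusted p = 0.0140), a call lost without GFP-positive replicate 2 or marrow replicate 2 or 3 (adjusted p from 0.0554 to 0.0588). Cspg4, the NG2 proteoglycan, which chondrocytes also carry, was higher, at 523, 564 and 804 CPM against 16.2, 13.2 and 15.1 CPM. The summed level of this list overlapped, at 565 to 858 CPM against 579 to 855 CPM, and in GFP-positive bone most of it was Cspg4.

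Beyond Pth1r, genes of the PTH and cyclic AMP pathway had no common direction. Of 18 tested, 7 were higher and 6 lower, close to the 32.1% and 34.1% over all genes. The list's median was 0.02 (-0.59 and 10 lower with library totals alone). Fosl1, an AP-1 transcription factor, stood at 124, 140.0 and 159 CPM against 1.61, 1.19 and 2.68 CPM. Pde4b, which degrades cyclic AMP, stood at 617, 569 and 311 CPM against 5.50, 10.7 and 5.49 CPM. Rgs2, a brake on G protein signalling that PTH induces in bone cells, stood at 11.4, 9.50 and 12.3 CPM against 83.7, 176 and 160.0 CPM. Fosl1 and Pde4b lay above marrow and Rgs2 below it. Gnas, the stimulatory G protein subunit, was higher (log2 fold change 0.93 ± 0.08), and the kinases Sik1 and Sik2, which PTH signalling inhibits, were lower (log2 fold changes -1.67 ± 0.24 and -1.88 ± 0.27). Pthlh, which encodes PTHrP, stood at 0.822, 0.291 and 0.719 CPM against 0.225, 0.261 and 0.188 CPM, close to the floor. It was not called in the knockout (adjusted p = 0.0864). In the control it held 0.114, 0 and 0.144 CPM against 0.636, 2.27 and 4.43 CPM, and the difference was called (6.07 ± 1.05, adjusted p = 0.00126) at these low counts. Of 12 osteoclast regulators 3 were higher and 7 lower (median -0.91). Tnfsf11, RANKL, which drives osteoclasts, stood at 6.35, 7.32 and 9.85 CPM against 72.3, 122 and 102 CPM, and Tnfrsf11b, its decoy receptor osteoprotegerin, at 62.3, 79.1 and 175 CPM against 12.9, 11.9 and 17.6 CPM. RANKL thus lay on the marrow side and osteoprotegerin on the bone side, without overlap in either gene. Il34, another ligand of the macrophage receptor, was lower at 3.97, 2.76 and 2.16 CPM against 172, 209.9 and 237 CPM, and the cytokine Il11 higher at 35.6, 32.7 and 75.7 CPM against 0.483, 0.336 and 0.469 CPM.

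Wnt antagonists lay on both sides. Of 11 tested, 4 were higher and 6 lower (median -0.64), where 32.1% of all genes were higher and 34.1% lower. Frzb, a secreted antagonist of cartilage, stood at 229, 186 and 201 CPM against 7.05, 6.08 and 4.13 CPM. Its relatives Sfrp1 and Sfrp4 stood at 24.1, 17.4 and 22.6 CPM against 183, 186 and 206 CPM and at 24.2, 23.6 and 17.5 CPM against 95.04, 236 and 127 CPM. Frzb lay on the GFP-positive side and Sfrp1 and Sfrp4 on the marrow side, without overlap. Dkk2, an antagonist that binds the Wnt co-receptor, was lower (log2 fold change -5.68 ± 0.69). Of 10 Wnt targets and feedback genes 5 were higher and 4 lower (median 0.64), or 3 and 4 with library totals alone. Lgr6, a receptor that enhances Wnt signalling, stood at 17.4, 28.1 and 41.8 CPM against 2.74, 2.24 and 2.02 CPM, and Ccnd1, cyclin D1, at 18.4, 16.4 and 10.9 CPM against 1.96, 3.88 and 2.58 CPM. The feedback inhibitors Nkd2 and Apcdd1 were lower (log2 fold changes -2.55 ± 0.17 and -2.0 ± 0.25). Axin2, a common target, was not called, at 3.10, 1.02 and 1.01 CPM against 1.51, 0.784 and 0.704 CPM.

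In the BMP and TGF-beta list 12 were higher and 10 lower of 23 genes (median 0.56, or -0.07 with library totals alone). The shares over all genes were 32.1% higher and 34.1% lower. Ligands split between the subsets. Bmp2 stood at 364, 377 and 453 CPM against 57.4, 45.7 and 76.0 CPM, and Bmp8a was higher (log2 fold change 3.94 ± 0.15). Bmp4 stood at 10.96, 9.35 and 10.3 CPM against 571, 469.9 and 805 CPM. Tgfb1 and Tgfb2 were higher (log2 fold changes 1.51 ± 0.09 and 2.57 ± 0.16). Antagonists split as well: Nog, noggin, stood at 268, 208 and 152 CPM against 5.18, 4.22 and 12.3 CPM, while Grem1, gremlin, stood at 1.46, 1.94 and 2.23 CPM against 98.9, 143 and 88.7 CPM and Fst, follistatin, which binds activin, at 13.0, 13.3 and 9.42 CPM against 396, 398 and 450.0 CPM. In the 5 genes given with levels the subsets did not overlap. In the Hedgehog list 4 were higher and 5 lower of 11 (median 0.31, -0.31 with library totals alone). Beside Ihh, the transcription factor Gli1 was higher (log2 fold change 2.88 ± 0.32), and the transducer Smo and the inhibitor Sufu were lower (log2 fold changes -1.07 ± 0.13 and -2.08 ± 0.14).

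Growth factor genes of the IGF axis lay on the marrow side. Of 14, 4 were higher and 10 lower (median -2.56), where 32.1% of all genes were higher and 34.1% lower. Igf1, the ligand, stood at 10.3, 9.01 and 5.54 CPM against 242, 275 and 369 CPM. Igfbp5, a binding protein, stood at 80.4, 87.1 and 63.4 CPM against 2116, 3425 and 2548 CPM, and Pappa, the protease that cuts IGF-binding proteins, at 3.38, 4.70 and 4.6 CPM against 147, 171 and 190.3 CPM. Igf1r, the receptor, went the other way, at 31.5, 37.4 and 42.7 CPM against 14.7, 10.7 and 20.1 CPM (1.32 ± 0.18). In the FGF list 6 were higher and 8 lower of 16 (median -0.44), beside the same shares over all genes. Fgfr3, the receptor that restrains growth plate chondrocytes, stood at 986, 1092 and 887 CPM against 122, 65.7 and 74.3 CPM, whereas Fgfr2 stood at 124, 139.7 and 80.8 CPM against 1269.5, 1265 and 1208 CPM. The ligand Fgf7 and the feedback inhibitors Spry1 and Spry4 were lower (log2 fold changes -5.75 ± 0.21, -5.99 ± 0.19 and -3.50 ± 0.16). Of 12 Notch genes 1 was higher and 10 lower (median -1.96). The ligand Jag1 stood at 6.62, 11.9 and 16.5 CPM against 82.7, 67.6 and 122 CPM, and the target Heyl at 4.57, 3.30 and 4.46 CPM against 90.6, 152 and 129.7 CPM. Hes1, another target, was lower (log2 fold change -1.45 ± 0.17). Dll1, a ligand at 1.19, 1.74 and 2.23 CPM against 0.193, 0.336 and 0.282 CPM, was the member called higher, and leaving out GFP-positive replicate 1 or 3 or any marrow library ended that call (adjusted p from 0.0524 to 0.0936). Library totals alone ended it as well (adjusted p = 0.0617).

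Glycolysis genes were higher in GFP-positive bone. Of 16, 14 were higher and 1 lower (median 1.84), where 32.1% of all genes were higher and 34.1% lower. Pkm, pyruvate kinase, stood at 1382, 1128 and 1103 CPM against 113, 129.9 and 120.1 CPM. Ldha, lactate dehydrogenase, stood at 1529.5, 1211 and 1333 CPM against 308, 336 and 361 CPM, and Hk2, a hexokinase, at 151, 205 and 170.3 CPM against 8.59, 10.2 and 8.12 CPM. Pgk1, phosphoglycerate kinase, was higher (log2 fold change 2.12 ± 0.09). The libraries of these genes did not overlap. Aldoa, an aldolase, was the member called lower (-0.21 ± 0.09, adjusted p = 0.0410), and leaving out GFP-positive replicate 2 or 3 or marrow replicate 2 or 3 ended that call (adjusted p from 0.121 to 0.210). The call also ended with only the compared libraries, DESeq2 or the length trend removed (adjusted p from 0.127 to 0.281). In the control 16 of 16 were higher (median 2.76), and the contrast was smaller in the knockout for 11 of the 16 and larger for 2, where 8.66% of all genes were lower and 12.5% higher. Pgk1 differed by log2 -1.21 ± 0.12 and Ldha by -1.0 ± 0.12 (adjusted p = 2.00e-05 and 1.19e-04). Pkm did not (0.11 ± 0.14, adjusted p = 0.608; -0.41 with library totals alone).

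Of 15 hypoxia response genes 6 were higher and 4 lower, beside 32.1% and 34.1% over all genes. The list's median was 0.04 (-0.57 with library totals alone). P4ha2, a collagen prolyl hydroxylase that hypoxia induces, stood at 520.5, 461 and 465 CPM against 51.9, 54.5 and 61.3 CPM. Bnip3, a mitophagy protein, stood at 212, 181 and 199 CPM against 32.3, 43.4 and 33.4 CPM, and Higd1a, a mitochondrial protein, was higher (log2 fold change 2.06 ± 0.10). Epas1, which encodes HIF-2 alpha, stood at 37.4, 32.6 and 31.6 CPM against 441, 578 and 507 CPM, lower without overlap. Hif1a, its relative, was higher (log2 fold change 1.39 ± 0.08). Vegfa, the angiogenic factor, did not pass (0.04 ± 0.12, adjusted p = 0.804; -0.57 with library totals alone). In the control 10 of the 15 were higher, with a median of 1.71. The contrast was lower in the knockout for 8 and higher for 1, beside 8.66% and 12.5% over all genes. Bnip3 differed by log2 -1.86 ± 0.17 and Higd1a by -1.22 ± 0.14 (adjusted p = 1.16e-05 and 4.49e-05). Of 18 oxidative phosphorylation genes 9 were higher and 2 lower (median 0.21), and with library totals alone 1 was higher and 10 lower. Leaving out marrow or GFP-positive libraries 1 at a time left 1 to 2 lower. Ndufa1, of complex I, was higher (log2 fold change 1.01 ± 0.10). Atp5b, Cox4i1 and Cox7b were higher (log2 fold changes 0.59 ± 0.07, 0.54 ± 0.07 and 0.60 ± 0.08), changes that turned to -0.03, -0.08 and -0.01 with library totals alone.

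Cell cycle genes were mostly higher in GFP-positive bone. Of 22, 17 were higher and 1 lower (median 1.13), beside the same 32.1% and 34.1% over all genes, and with library totals alone 9 were higher and 6 lower. Ccnb1, cyclin B1 of mitosis, stood at 30.7, 33.3 and 29.1 CPM against 11.01, 9.37 and 5.77 CPM. Top2a, a topoisomerase of dividing cells, stood at 28.9, 39.2 and 34.02 CPM against 10.6, 11.9 and 8.26 CPM. Cdk1, the mitotic kinase, and Aurka, a spindle kinase, were higher (log2 fold changes 1.75 ± 0.18 and 1.99 ± 0.17). Tyms, thymidylate synthase, was called lower (-0.46 ± 0.16, adjusted p = 0.0209), and leaving out GFP-positive replicate 1 or 3 or marrow replicate 1 ended that call (adjusted p from 0.0768 to 0.163). The call also ended with only the compared libraries or the length trend removed (adjusted p = 0.0770 and 0.0878). Of 18 immediate early and heat shock genes, which respond to tissue handling, 10 were higher and 6 lower (median 0.68). Fos, an AP-1 factor, stood at 5956, 4828 and 2799 CPM against 9147, 10963 and 8569 CPM. Dnajb1, a co-chaperone, stood at 1989, 1796 and 1001 CPM against 418, 423 and 307 CPM. In GFP-positive bone both genes were lowest in replicate 3. Hsp90aa1 and Hspb1, heat shock proteins, were higher (log2 fold changes 1.12 ± 0.09 and 3.73 ± 0.31). The contrast of Fos differed between genotypes by log2 -1.4 ± 0.24 (adjusted p = 0.00108). In the knockout contrast 9 of the 18 genes were lower and 3 higher than in the control, beside 8.66% and 12.5% over all genes. The part of these 18 genes in the other results was not tested.

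**Figure D3:**
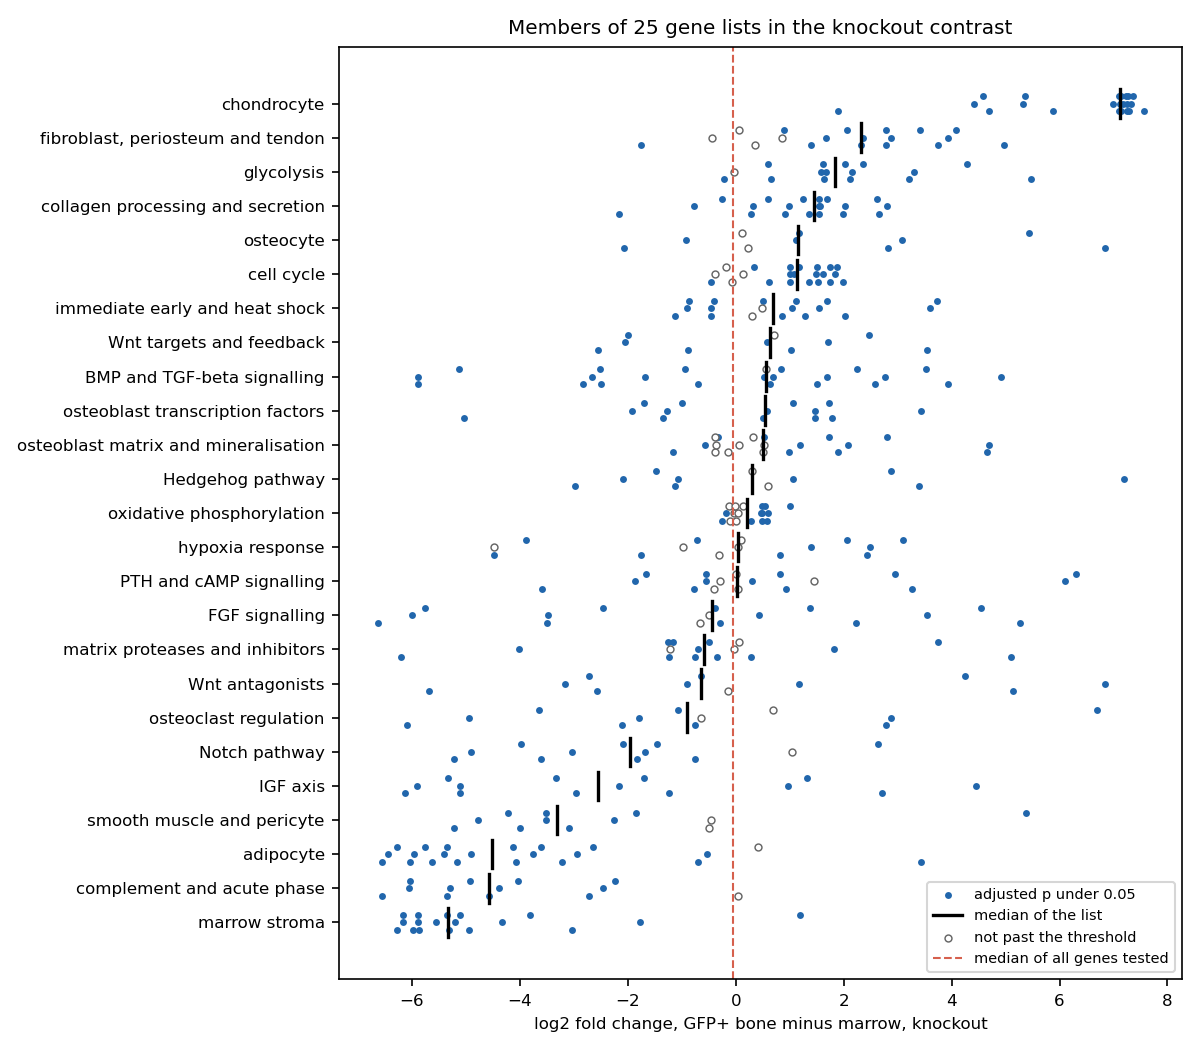
Log2 fold change of each member of 25 gene lists in the knockout contrast, 1 point per gene, with the median of each list and a dashed line at the median of all genes tested. The chondrocyte list lies highest (median 7.13) and the marrow stroma, complement and adipocyte lists lowest (medians -5.34, -4.58 and -4.51).

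The difference between the knockout and control contrasts was called for 3281 genes (21.1%), 1938 higher (12.5%) and 1343 lower (8.66%) in the knockout. With library totals alone it was called for 5839, with 863 higher and 4976 lower. The chondrocyte contrast was larger in the knockout for 16 of the 22 list members and smaller for 0, and with library totals alone it was larger for 7. Col2a1, for which control GFP-positive libraries held 80472, 76096 and 97345 CPM against 1261, 1743 and 1344 CPM in control marrow, differed by log2 1.27 ± 0.20 (adjusted p = 6.45e-04). DESeq2 did not call it (adjusted p = 0.756), nor the difference of Col1a1 (adjusted p = 0.235). Col11a2, a chain of collagen XI, held 1507, 1106 and 1612 CPM against 296, 563 and 542 CPM in the control beside 15214, 14884 and 14319 CPM against 798, 559 and 401 CPM in the knockout, a difference of 3.06 ± 0.31. Of the marrow stroma genes 4 had a higher and 1 a lower contrast in the knockout, a split that became 1 and 4 with library totals alone. Of the 4, Cxcl12 differed by log2 1.32 ± 0.25 (adjusted p = 0.00236), at 91.3, 119.7 and 122 CPM against 26370.3, 19378 and 19444 CPM in the control.

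The genes with the smallest p of the difference lay on both sides. Timp1 was 306, 320.4 and 344 CPM against 21.1, 28.5 and 22.9 CPM in the knockout and 209, 241 and 193 CPM against 102, 152 and 126 CPM in the control, and its contrast was larger in the knockout, with a log2 difference of 2.98 ± 0.16 (adjusted p = 6.29e-07). Nt5e, the ectoenzyme CD73 that makes adenosine, was 694, 746 and 699 CPM against 16.6, 18.9 and 21.0 CPM in the knockout and 129, 119 and 131 CPM against 19.8, 24.0 and 24.7 CPM in the control. Plaur, the urokinase receptor, was 169.8, 211 and 258 CPM against 3.32, 4.11 and 2.77 CPM and 39.2, 44.8 and 35.1 CPM against 5.91, 8.16 and 7.71 CPM. In these 3 genes every GFP-positive library was higher, and every marrow library but those of Nt5e lower, in the knockout than in the control. Alpl, Sqle, an enzyme of cholesterol synthesis, and Rnh1, a ribonuclease inhibitor, had larger contrasts in the knockout (log2 differences of 2.06 ± 0.12, 2.24 ± 0.14 and 1.66 ± 0.10). On the other side Adm, adrenomedullin, a vasodilator peptide, was 10.04, 8.92 and 4.82 CPM against 31.4, 28.6 and 20.04 CPM in the knockout and 20.5, 23.4 and 20.7 CPM against 6.14, 6.71 and 6.90 CPM in the control, lower in GFP-positive bone in the former and higher in the latter without overlap. Ccn1, a matrix signalling protein, also turned, with 3975, 3726 and 2343 CPM against 7572, 8701 and 5055 CPM in the knockout and 3471, 3244 and 3630.4 CPM against 1755, 2016 and 2207 CPM in the control. Thsd4, a microfibril protein, Plin2, a lipid droplet protein, and Fam162a, a hypoxia-induced mitochondrial protein, differed by log2 -2.75 ± 0.20, -1.72 ± 0.11 and -1.68 ± 0.11.

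Of the 10277 knockout calls, 222 (2.16%) were called in the opposite direction in the control. The difference was called for all 222, which calls in opposite directions make nearly certain. At 5 CPM or more in a group were 193, of which 111 were higher and 82 lower in knockout GFP-positive bone. The following examples were chosen after their values were seen. Nes, nestin, an intermediate filament of some skeletal progenitors, was 11.8, 9.84 and 20.6 CPM against 1.48, 2.09 and 1.6 CPM in the knockout and 0.342, 1.70 and 1.06 CPM against 2.17, 5.04 and 4.62 CPM in the control. Inhba, the activin A subunit, was 10.2, 17.2 and 89.5 CPM against 1.93, 2.16 and 2.86 CPM in the knockout, with GFP-positive replicate 3 far above replicates 1 and 2, and 5.81, 7.38 and 4.96 CPM against 11.2, 13.2 and 19.5 CPM in the control. Pim3, a kinase, was 589, 507 and 277 CPM against 1202, 1209.9 and 1238 CPM in the knockout and 389, 411 and 422 CPM against 168, 115 and 141 CPM in the control. In each of these 3 genes the groups did not overlap in either genotype. Scd1, a desaturase of fatty acids, was 311, 319 and 308 CPM against 586, 615 and 345 CPM in the knockout, which passed narrowly (-0.70 ± 0.25, adjusted p = 0.0285), and 329, 294 and 298 CPM against 41.6, 109 and 76.3 CPM in the control. Its knockout call was lost without replicate 1 or 2 of either subset (adjusted p from 0.0812 to 0.157). The call was also lost with DESeq2 (adjusted p = 0.0536), with no filter on low counts (adjusted p = 0.114) and with the length trend removed (adjusted p = 0.0670). Fgf1 and Dkk1, a growth factor and a Wnt inhibitor, were higher in the knockout contrast (1.38 ± 0.36 and 1.18 ± 0.28) and lower in the control (-1.63 ± 0.39 and -1.61 ± 0.25). Six2, a homeobox factor, went from 2.15 ± 0.42 in the control to -1.85 ± 0.37 in the knockout, with its direction reversed.

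**Figure D4:**
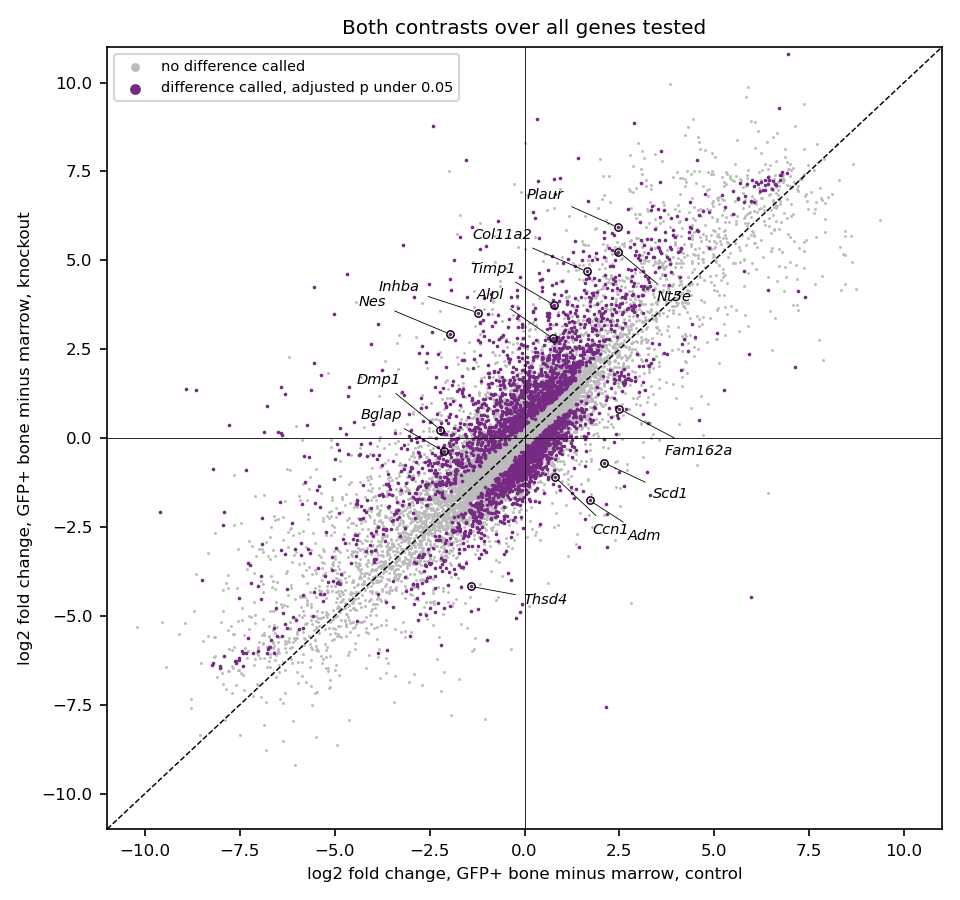
Log2 fold change of GFP-positive bone minus marrow in the control (horizontal) and in the knockout (vertical), 1 point per gene tested, with genes whose contrasts differed in purple and the line of equal contrasts dashed. Timp1, Alpl, Nes and Inhba lie above the line, and Adm, Ccn1 and Scd1 below it.

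Markers of other cell types moved with the subsets, and their part in the results was not tested. The counts of markers below stand beside 32.1% higher and 34.1% lower over all genes. The haemoglobin and red cell genes summed to 45.4 to 609 CPM in GFP-positive bone and 62.7 to 82.0 CPM in marrow. GFP-positive replicate 2 was the high library, with Hba-a1 at 19.6, 223 and 66.4 CPM over the 3 libraries. Platelet genes summed to 12.7 to 14.0 CPM in GFP-positive bone and 11.1 to 361 CPM in marrow, where replicate 2 held Ppbp at 105.9 CPM beside 0.579 and 0.892 CPM. Without GFP-positive replicate 2 the comparison called 9241 genes, without marrow replicate 2 it called 9348, and without both knockout libraries numbered 2, a setting chosen after the data were seen, it called 8944. Of the marker lists, pan-leukocyte genes were higher for 5 and lower for 1 of 9 tested (3 higher without both libraries numbered 2) and summed to 113 to 139.7 against 14.4 to 22.8 CPM. In GFP-positive bone most of that sum was Lcp1, an actin-bundling protein, at 129, 113 and 93.6 CPM against 1.09, 1.08 and 1.22 CPM, while Ptprc (CD45), the defining leukocyte gene, stood at 0.457, 2.08 and 2.52 CPM against 0.0644, 0 and 0.141 CPM and was not called without both libraries numbered 2 (adjusted p = 0.0635). Neutrophil genes summed to 26.7 to 129.7 against 9.37 to 21.6 CPM (4 higher and 1 lower of 9) and monocyte genes to 22.1 to 48.5 against 5.67 to 11.4 CPM (3 higher and 0 lower of 9). Of 9 red cell genes 0 were higher and 2 lower, and of 6 platelet genes 0 and 2. Without the pairing 5 monocyte and 4 red cell genes were higher and 4 platelet genes lower. Leaving out single knockout libraries gave 1 to 7 neutrophil, 3 to 5 monocyte and 0 to 6 red cell genes higher and 0 to 5 platelet genes lower, so these counts rest on single libraries.

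B cell markers summed to 1.87 to 7.05 against 0.708 to 1.08 CPM, with Pax5 and Igll1 at 0 in marrow, and T and NK markers to 3.74 to 9.71 against 0.161 to 0.746 CPM, with Cd3e at 0 in all 6 libraries. Of the tested members 2 of 4 and 3 of 4 were higher, and leaving out any single knockout library left 1 B cell gene higher, since Blnk, a B cell adaptor, lost its call (adjusted p from 0.0613 to 0.108). Blnk also lost it with only the compared libraries, library totals alone or no filter on low counts (adjusted p from 0.0555 to 0.211). Endothelial genes summed to 15.6 to 31.4 against 71.5 to 118 CPM (3 higher and 2 lower of 11). Eng, endoglin, which stroma also carries, stood at 8.40, 10.5 and 8.27 CPM against 64.6, 80.5 and 82.0 CPM and was most of the sum in marrow. In GFP-positive replicates 2 and 3, with sums of 31.4 and 20.9 CPM, other members made up the larger part. Osteoclast markers summed to 1251 to 1409.7 against 225 to 528 CPM (2 higher and 1 lower of 5). In GFP-positive bone that sum was nearly all Nfatc1, a transcription factor not limited to osteoclasts, at 1085, 1261 and 1215 CPM against 23.4, 21.1 and 23.2 CPM. In marrow it was mostly Ctsk, cathepsin K, at 86.3, 97.6 and 109.9 CPM against 157, 179 and 157 CPM, and Mmp9, at 72.6, 44.3 and 51.6 CPM against 39.4, 93.8 and 344 CPM. Oscar, Ocstamp and Dcstamp, genes defining osteoclasts, were at 0 in marrow and were counted in GFP-positive bone. Ocstamp, at 0.274, 0 and 0.647 CPM there, was called higher, and leaving out replicate 1 or 3 of either subset ended that call (adjusted p from 0.0857 to 0.134) and left 1 osteoclast marker higher. Acp5 stood at 6.12, 5.53 and 4.82 CPM against 4.44, 6.68 and 3.57 CPM. Skeletal muscle genes were higher for 4 of 4 tested and summed to 34.9 to 41.5 against 7.04 to 13.6 CPM, with Myh4 and Tnnc2 at 0 in all 6. With library totals alone 2 were higher. Schwann and neural genes were higher for 6 of 7 and summed to 129.7 to 169 against 41.8 to 45.1 CPM. In GFP-positive bone the largest part was S100b, which chondrocytes also make, at 94.7, 64.6 and 86.8 CPM against 5.73, 6.53 and 6.43 CPM. In marrow the largest part was Ncam1, an adhesion molecule, at 46.4, 42.7 and 47.7 CPM against 33.2, 35.6 and 33.8 CPM. Sox10, the defining Schwann cell factor, stood at 2.24, 3.68 and 3.45 CPM against 0.161, 0.0373 and 0 CPM.

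**Figure D5:**
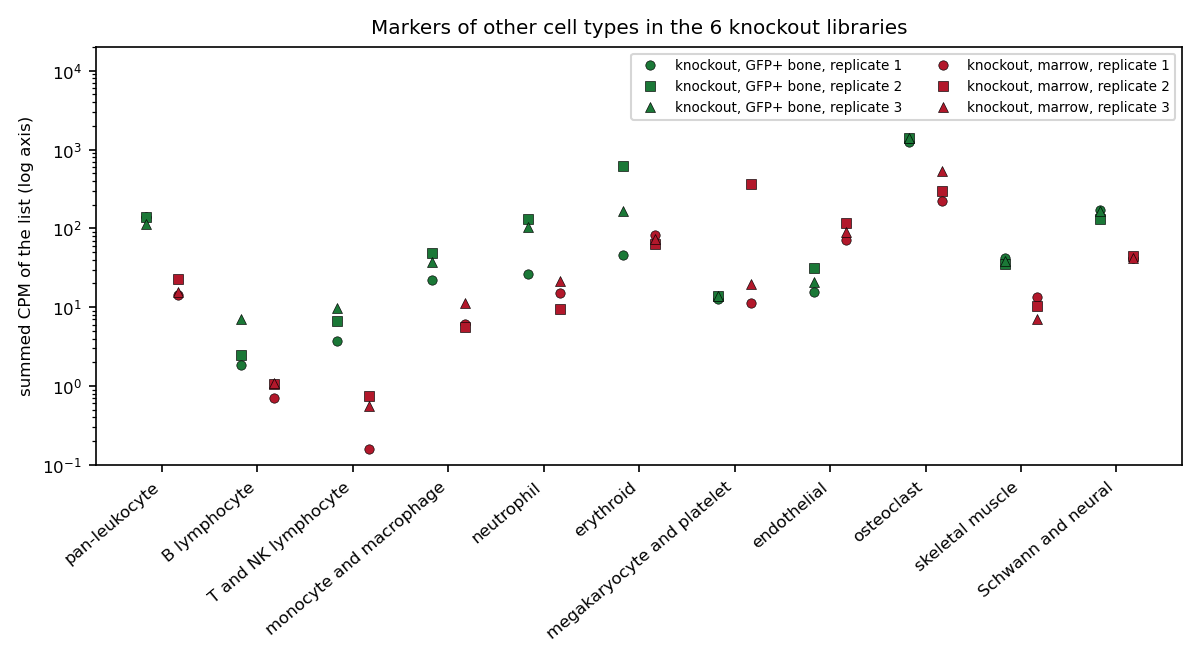
Summed level of 11 lists of markers of other cell types in each of the 6 knockout libraries (log axis, CPM after TMM scaling). GFP-positive replicate 2 is high for erythroid genes and marrow replicate 2 for platelet genes. The osteoclast sum lies highest in the 3 GFP-positive libraries, where it is nearly all Nfatc1, a gene not limited to osteoclasts.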

How the data were processed

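The deposited files hold raw counts of reads per gene, 1 table per library, which the authors made with STAR and featureCounts on mm10, per the submitters' processing notes. These also name DESeq2, and versions and strand setting are not given in the sources used here. SMART-Seq v4 cDNA was made from low RNA inputs, per the labels' protocols. Reads were counted without molecular identifiers, so floors and intervals cover counting error only.

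From the counts, edgeR 4.0.16 (R 4.3.3) fitted 1 quasi-likelihood model to all 18 libraries, with 6 group means and the replicate number as a block within each genotype (8 residual degrees of freedom), TMM scaling and filterByExpr (minimum count 10, minimum total 15), which kept 15516 of 54446 genes. P-values are two-sided and adjusted by the Benjamini-Hochberg method over all genes tested, with a threshold of 0.05. The SE is the log2 fold change divided by the root of the F statistic. The same-numbered knockout libraries deviated together from their group means (r = 0.0972, 0.144 and 0.136; differently numbered ones -0.128 to -0.0196), and in the control r was 0.0696 to 0.0771. Because each group was centred on its own mean, a positive same-numbered r pulls the others negative, so those are not separate evidence of pairing. The pairing comes from the titles' numbers, and each number holds cells of 1 sex. The count tables of a group differed by more than counting noise (chi-square over its degrees of freedom, 21.6 to 47.7), so none was treated as the same library sequenced again. Whether they are separate preparations of the same cells was not tested. Gene lists, members and tests were chosen with earlier results of these data known. Genes named are Pth1r, the 10 largest rises and falls and the 8 most abundant genes on each side among non-overlapping calls, from each list the members lowest in p (at most 4), the 6 smallest p of the difference on each side, and further list members given as context, which were chosen after their values were seen. Some of these genes are not reported here. Gene symbols of IDs came from the reference table for 54409 of 54446. Alternatives were no block, only the compared libraries, library totals alone, DESeq2 1.42.0, no low-count filter, a removed length trend and leaving out each library.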

Additional observations from a re-analysis of the deposited data

Results flagged for a closer look

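The contrast of GFP-positive bone with marrow differed between knockout and control for 3281 genes by the interaction term of the edgeR fit. The 11 genes given for it were among those with the smallest p on each side. The log2 difference, knockout minus control, was 2.98 for Timp1, 2.77 for Nt5e, 2.06 for Alpl, 3.47 for Plaur, 1.66 for Rnh1 and 2.24 for Sqle. It was -1.68 for Fam162a, -1.72 for Plin2, -1.88 for Ccn1, -2.75 for Thsd4 and -3.47 for Adm.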

How the results depend on the processing

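With library totals alone, which lowered the median of all genes by a shift of -0.61 on the log2 scale, the knockout comparison called 2928 genes higher and 8179 lower, and the share of calls that were higher went from 48.5% to 26.4%. The difference between genotypes was then called for 5839 genes, 863 higher and 4976 lower, and its higher share went from 59.1% to 14.8%. Under that setting the knockout log2 fold changes that turned were -0.027 for Atp5b, -0.078 for Cox4i1, -0.012 for Cox7b, -0.026 for Ddx3y, -0.12 for Eif2s3y, -0.087 for Spp1, -0.11 for Sp7, -0.49 for Phex and -0.57 for Vegfa. The log2 differences that turned were -0.054 for Irx5, -0.016 for Sox9, -0.42 for Ebf1, -0.034 for Apoe, -0.10 for Ppib, -0.41 for Pkm, -0.42 for Cox4i1, -0.13 for Gnas, -0.0073 for Epyc and -0.054 for Mia3. The difference of Ppbp turned to 4.18 without knockout marrow replicate 2, and the lowest value when leaving out a library, -1.64, came without knockout marrow replicate 3. The cause was not tested. Without the replicate block the knockout comparison called 10122 genes, the control 9391 and the difference 2864. The named genes that lost their knockout call without the block were Spp1, Mmp13 and the Y-linked Uty, Ddx3y and Eif2s3y, and Csf1r, Hba-a1, Hbb-bs and Ppbp gained one. With only the compared libraries 9874 knockout and 8887 control genes were called, with DESeq2 10284 knockout genes, with no low-count filter 10076 of 29569 tested and with the length trend removed 10061. Leaving out 1 library gave 9241 to 9411 genes in the knockout, 8541 to 8749 in the control and 2511 to 2948 for the difference. Without both knockout libraries numbered 2, chosen after seeing the data, 8944 genes were called, 85.6% of the calls were kept, and the difference was called lower for 850. Over all settings the knockout fold changes of named genes kept their side of the threshold, and their direction where called, in 3215 values. They lost the call in 128, gained it in 28 and turned in 9. For their differences these numbers were 4348, 242, 76 and 11. Turns, here and above, were counted only for values called in the main fit or under the setting. Floors of 0.0966 to 0.216 CPM limit what can be said of genes near 0.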
